A study of Drosophila melanogaster with 4 samples.

Results

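Peptidoglycan recognition proteins and thioester-containing proteins stand at the front of the fly's humoral defence. Peptidoglycan recognition proteins (PGRPs) bind the cell wall polymer of bacteria. Some of them start signalling through the Toll or the Imd pathway, and others are amidases that cut the polymer and so limit the signal. Thioester-containing proteins (TEPs) are secreted relatives of the complement factors and alpha-macroglobulins of vertebrates. Relish, encoded by Rel, is the NF-kappaB transcription factor of the Imd pathway and drives the genes of antibacterial peptides and of several PGRPs.

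The genes considered are PGRP-SA, PGRP-SD, PGRP-SB1, PGRP-LB, PGRP-LC, PGRP-SC2, Tep1, Tep2, Tep4 and Rel, 10 in all, and a gene was taken as measured where a probe set of the array was annotated to it and to no other gene. This gave 5 of the 10 genes, with 1 probe set each: PGRP-SB1, PGRP-LB, PGRP-SC2, Tep4 and Rel. They are 5 of the 10845 genes named by single-gene probe sets in the whole table. No annotated probe set was found for the sensing genes PGRP-SA, PGRP-SD and PGRP-LC or for Tep1 and Tep2. Of these, Tep2 has 2 probe sets through NCBI RefSeq, which lists their names among the synonyms of that gene. They lie outside the annotation used for the other genes and are described apart. PGRP-SA, PGRP-SD, PGRP-LC and Tep1 were not analysed here.

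The RNA came from whole adult Drosophila melanogaster, with 1 baseline sample on each of 4 one-colour Affymetrix arrays. The flies were reared on a standard diet as young larvae, put on the same diet without yeast from early in the third instar, and kept there until 4 days after eclosion. All 4 samples were taken just before a refeeding time course, so they form a single group without yeast and without a control on yeast. The labels place every sample just before the time course and give hours -4, -3, -2 and -1 only as an order for a change-point analysis, so an hour here is a label and no elapsed time is known. The samples are called libraries 1, 2, 3 and 4 in that order. Libraries 3 and 4, labelled hours -2 and -1, make up the later pair and libraries 1 and 2, labelled hours -4 and -3, the earlier pair, with values given in library order within a pair. The sources used here state no genotype, sex, infection status or number of flies per sample. Nothing states that the samples came from separate cultures, so p-values measure the spread between these 4 samples, which may be technical. In whole-fly RNA, fewer cells of a type and less RNA per cell cannot be told apart.

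Values are intensities on a linear scale, normalized between arrays by the authors. They compare 1 probe set between libraries, and are not set against one another between genes. The median intensity was 112 to 113 in the 4 libraries. The 23 negative control probe sets were picked by name, and their match to fly sequence was not checked. The highest of them reached 119 to 133, and of 13966 fly probe sets, 39.9% lay above it in all libraries. Tests were run on log2 intensities of the 8379 probe sets that passed a filter on dim values. Libraries 3 and 4 stood apart from libraries 1 and 2 in their controls. For 3 fly control transcripts, signal at the 3' end over that at the 5' end averaged, on the log2 scale, 1.44 and 1.40 in the later pair, against 1.14 and 1.05 in the earlier pair. Control RNAs added at hybridisation stood at 1.59 and 1.29 times library 1 in libraries 3 and 4, against 0.927 times in library 2.

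The first question was whether each gene was measured above background and how far it varied between samples of the same state. All 5 annotated genes lay above the highest negative control in each of the 4 libraries, and all 5 passed the filter. Of these 5, the amidase genes PGRP-LB, PGRP-SB1 and PGRP-SC2 were the steadiest and Rel varied most. A probe set shared by the amidase genes PGRP-SC1a and PGRP-SC1b was less steady and is described apart. PGRP-LB encodes an amidase that breaks down diaminopimelic-acid-type peptidoglycan and dampens Imd signalling. It had an intensity of 360.2 and 371.8 in the later pair, against 359.9 and 370.1 in the earlier pair. The pairs interleave, and the library values hardly differ.

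The ratio of highest to lowest library was 1.03 for PGRP-LB, and its mean was 365 ± 6.35 (SD, n = 4). PGRP-SB1, whose product is a secreted amidase with bactericidal activity, had 179.8 and 170.6 in the later pair, against 171.8 and 174.4 in the earlier pair. Its mean was 174 ± 4.11 (SD, n = 4), and no pair of libraries stood apart. PGRP-SC2 encodes a secreted amidase known from the gut. It had 423.2 and 424.1 in the later pair, against 405.3 and 389.7 in the earlier pair, with a mean of 411 ± 16.4 (SD, n = 4). Libraries 3 and 4 were both higher than libraries 1 and 2 for this gene, by a small margin.

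Tep4 is a member of the complement-like family that encodes a secreted protein. Its intensity was 179.2 and 166.9 in the later pair, against 185.0 and 197.9 in the earlier pair, with a mean of 182 ± 12.9 (SD, n = 4). Library 4 was the lowest and library 2 the highest, with a ratio of 1.19 between them. Rel had 179.7 and 168.2 in the later pair, against 211.9 and 212.3 in the earlier pair. Its mean was 193 ± 22.5 (SD, n = 4) and its highest library exceeded its lowest 1.26-fold. The values of Rel in libraries 1 and 2 were nearly equal, and both values in libraries 3 and 4 lay below them.

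Rel, Tep4 and PGRP-SB1 came closest to background. Their lowest ratio to the highest negative control of the same library was 1.26, 1.25 and 1.28, while PGRP-LB and PGRP-SC2 stood at least 2.79 and 3.18 times above it. No background was subtracted here, and how much of the dimmer signals is background was not tested.

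**Figure D1:**
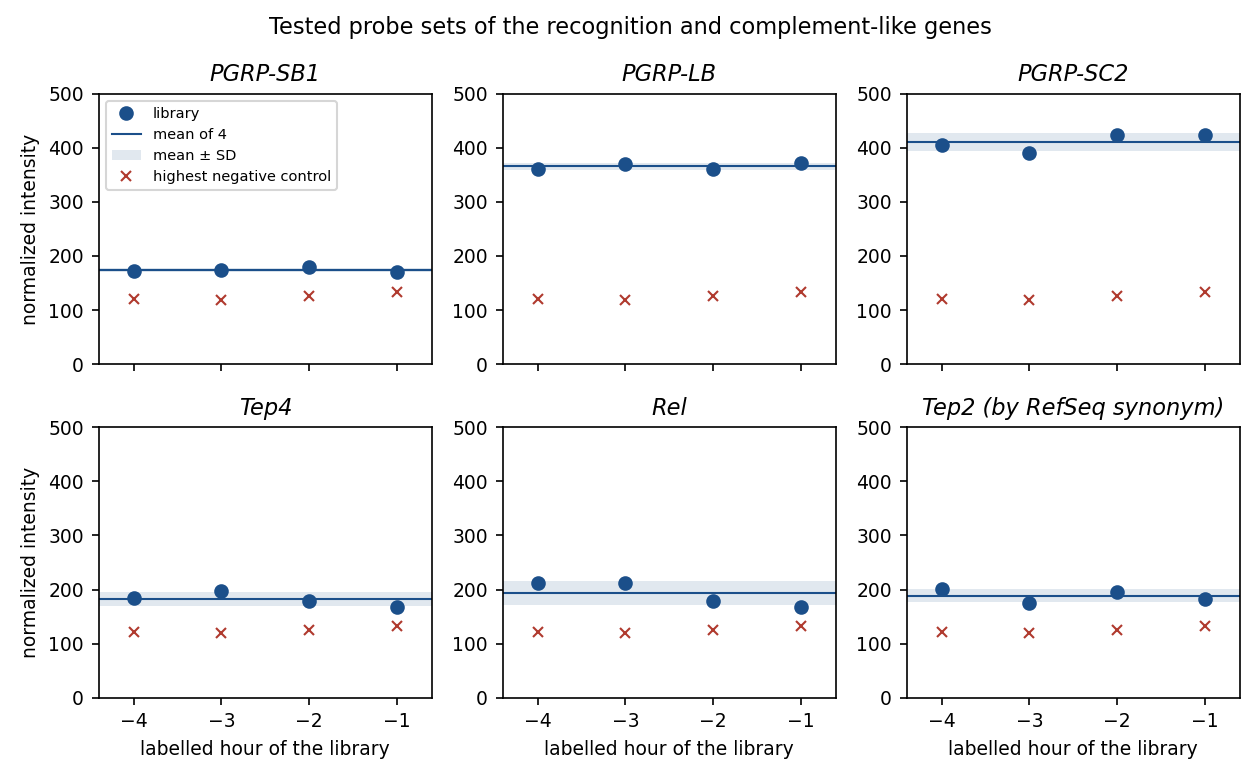
Normalized intensity (y axis, from 0) of the 6 tested probe sets of the recognition and complement-like genes in each library, ordered by its labelled hour (x axis). Points are single libraries, the line and band are the mean and SD over the 4, and crosses mark the highest negative control of each library. PGRP-LB and PGRP-SB1 lie nearly flat, and Rel is lower at hours -2 and -1.

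Tep2, another member of the complement-like family, was read through the 2 probe sets that RefSeq ties to it. Among probe set names that RefSeq lists as synonyms, 113 also appear in the platform annotation, and the same gene is listed there for all 113. The 2 Tep2 probe sets are not among the 113, so their own link to Tep2 was not checked. The brighter Tep2 probe set had an intensity of 195.2 and 182.4 in the later pair, against 201.1 and 174.8 in the earlier pair, with a mean of 188 ± 12.0 (SD, n = 4). Its libraries interleave, with libraries 1 and 3 high and libraries 2 and 4 low. The other Tep2 probe set lay between 24.4 and 28.4 in all libraries, below the median negative control of 46.1 to 48.7, and was not tested. Of the pair, only the brighter one lay above the highest negative control in all libraries.

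The spread of each gene was next compared with the spread of all probe sets of like intensity, which shows whether a gene is unusually steady or variable for this platform. Of the 5 annotated genes, 0 had an excess variance at an adjusted p under 0.05 in the limma-based test, where 0.274% of all tested probe sets did. At an unadjusted p under 0.05 the test named 1 of the 5, Rel, beside 5.53% of all tested probe sets. The observed SD was, at the median, 0.633 times the expected one over the 5 genes and 0.927 times over all tested probe sets. The SD of PGRP-LB was 0.283 times that expected, a ratio larger than that of only 3.03% of tested probe sets. The amidase genes PGRP-SB1 and PGRP-SC2 had ratios of 0.437 and 0.633, also below the median of all probe sets. After a further quantile normalization the ratio was 0.516 for PGRP-SB1, 0.529 for PGRP-LB and 1.11 for PGRP-SC2. The low spread of PGRP-SC2 therefore depended on the processing.

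Tep4 and the brighter Tep2 probe set varied slightly more than expected, with ratios of 1.32 and 1.18. The SD of Rel was 2.19 times that expected and larger, on this ratio, than that of 95.5% of tested probe sets. Its unadjusted p was 0.0388 and its adjusted p 0.857 in the limma-based test, so it did not pass once all probe sets were counted. As coefficients of variation, PGRP-LB had 1.74%, PGRP-SB1 2.36%, PGRP-SC2 4.0%, Tep2 6.35%, Tep4 7.07% and Rel 11.7%, against a median of 5.24% over all tested probe sets.

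**Figure D2:**
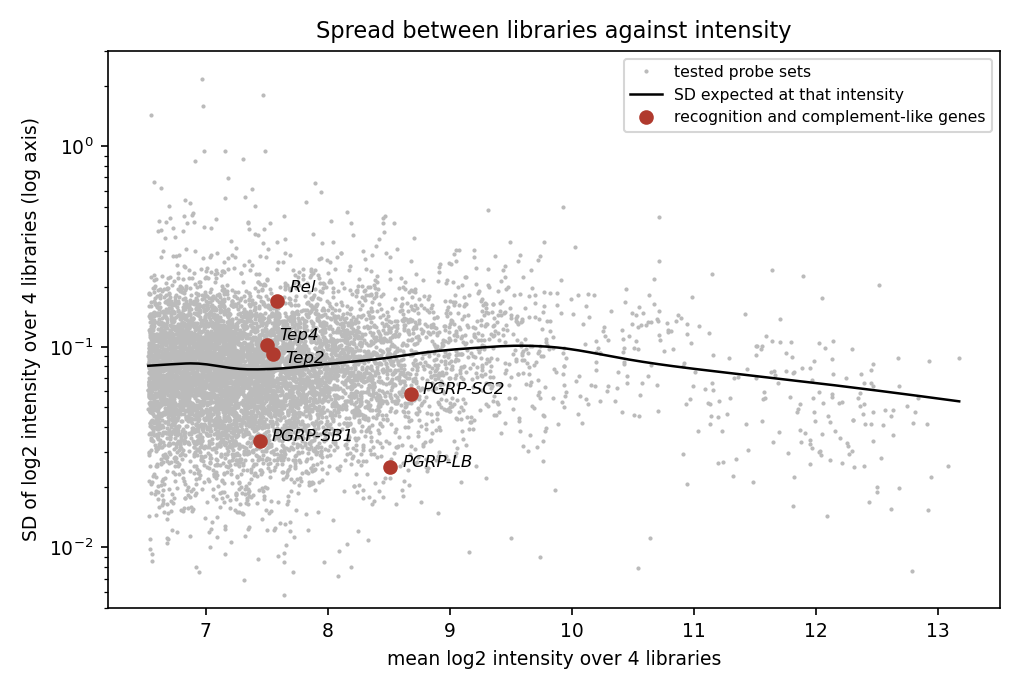
SD of log2 intensity over the 4 libraries (y axis, log scale) against mean log2 intensity (x axis) for the 8379 tested probe sets in grey, with the SD expected at each intensity as a line and the recognition and complement-like genes, Tep2 by its RefSeq synonym included, in red. Rel lies 2.19-fold above the line, and PGRP-LB, PGRP-SB1 and PGRP-SC2 lie below it.

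The labelled order was then used to set the later pair against the earlier pair. Of the 5 annotated genes, 0 differed at an adjusted p under 0.05 in limma, where 0.131% of all tested probe sets did. At an unadjusted p under 0.05, 1 of the 5 differed, again Rel, beside 12.3% of all tested probe sets. For 2 of the 5, Rel and Tep4, both libraries of the later hours lay below both of the earlier ones. That pattern held for 28.3% of all tested probe sets, so 2 of 5 is near what the whole table shows. PGRP-SC2 was the 1 gene of the 5 that was higher at the later hours without overlap, a pattern found in 17.2% of tested probe sets.

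Rel averaged 174 at hours -2 and -1 and 212 at hours -4 and -3. The log2 difference was -0.29 ± 0.06 (SE, 2 libraries against 2), with a 95% interval of -0.43 to -0.14, and the limma adjusted p was 0.156. On the linear scale this is a ratio of 0.820, with an interval of 0.740 to 0.908. Only 1.95% of tested probe sets had a difference as low as that of Rel. The interval of this single gene lies below 0, but the gene did not pass once all probe sets were taken into account.

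The call on Rel depended on the libraries used. Without library 3 the difference was -0.33 with a limma adjusted p of 0.00690, and without library 4 it was -0.24 with an adjusted p of 0.0453. The spread in these comparisons comes from libraries 1 and 2 alone, the closest pair of the 4 (Pearson r = 0.994 across probe sets), and 503 and 504 of the 8379 probe sets passed in them. Without library 1 or 2 the difference was -0.29 in each case, with adjusted p of 0.729 and 0.930.

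Tep4 averaged 173 at hours -2 and -1 and 191 at hours -4 and -3. Its log2 difference of -0.15 ± 0.07 (SE) had a 95% interval of -0.30 to 0.01 and a limma adjusted p of 0.444. PGRP-SC2 averaged 424 at the later and 397 at the earlier hours, a log2 difference of 0.09 ± 0.07 (SE) with an interval of -0.06 to 0.25 and an adjusted p of 0.601. Both intervals include 0, and neither gene passed once all probe sets were taken into account.

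For the remaining genes the intervals give the precision of this comparison, on a spread between samples that may be technical. The log2 difference was 0.0041 for PGRP-LB, with a 95% interval of -0.15 to 0.16, and 0.02 for PGRP-SB1, with an interval of -0.13 to 0.16. As ratios of later to earlier hours, these intervals span 0.903 to 1.11 for PGRP-LB and 0.916 to 1.12 for PGRP-SB1. The brighter Tep2 probe set differed by 0.0093, with an interval of -0.17 to 0.19. The limma adjusted p was 0.987, 0.932 and 0.972 for PGRP-LB, PGRP-SB1 and Tep2.

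Single libraries were also compared with the average of the remaining 3, which assumes that the single library varies like the rest. In this comparison 0 of the 5 genes passed in limma for any library, and 1, Rel in library 4, had an unadjusted p under 0.05, as did 8.63% of all tested probe sets for that library. The share of tested probe sets that passed was 0% for library 1, 0.107% for library 2, 0.704% for library 3 and 0.0119% for library 4. Among the genes, the smallest p was that of Rel in library 4, with 168.2 there against 179.7 to 212.3 in the other libraries. Its log2 difference was -0.25 ± 0.11 (SE), with an unadjusted p of 0.0459 and an adjusted p of 0.571. Next came Tep4, also in library 4, at 166.9 against 179.2 to 197.9, a log2 difference of -0.17 ± 0.08 (SE) with an adjusted p of 0.586. Library 3, which had the most calls after adjustment (library 4 had the most at an unadjusted p under 0.05), was neither the highest nor the lowest for Rel or Tep4, and for PGRP-SB1 it was the highest by a log2 difference of 0.06 ± 0.08 (SE) with an adjusted p of 0.955.

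Marker genes of fat body, blood cells, gut and male reproductive tract were read as a view of tissue content. They were added after their values were seen, so their sums and counts describe these libraries and do not test tissue content. Of 8 fat body markers, 6 were lower at hours -2 and -1 than at hours -4 and -3 without overlap, beside 28.3% of all tested probe sets. Their intensities summed to 2150 and 2348 in the later pair, against 2659 and 2656 in the earlier pair. The apolipoprotein gene apolpp had 616 and 684 in the later pair, against 936 and 820 in the earlier pair, without passing (limma adjusted p = 0.140). The 7 measured blood cell markers summed to 1471 and 1509 in the later pair, against 1715 and 1749 in the earlier pair. Of the 5 tested blood cell markers, 3 (Pxn, vkg and Col4a1) were lower in the later pair without overlap, beside 28.3% of all tested probe sets. The other tested markers, Hml and PPO2, overlapped between the pairs. Hml was level at 204 and 207 in the later pair, against 208 and 206 in the earlier pair. Pxn had 363 and 338 in the later pair, against 369 and 369 in the earlier pair. The basement membrane collagen genes vkg and Col4a1 had log2 differences of -0.45 and -0.38, and neither passed (limma adjusted p = 0.0713 and 0.112). The gene vkg had 212 and 233 in the later pair, against 306 and 302 in the earlier pair. Col4a1 had 476 and 504, against 618 and 654. A sum weighs bright probe sets most, and most of the fall in the blood cell sum lay in vkg and Col4a1. Which cells made these collagen transcripts was not tested. No marker was at 0, but srp, a GATA factor gene, lay at 29.9 to 33.0, within the range of negative controls.

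The 7 measured gut markers summed to 13424 and 15420 in the later pair, against 16999 and 17288 in the earlier pair. Without overlap, 3 of them were lower and 1 higher in the later pair, beside 28.3% and 17.2% of all tested probe sets. The trypsin genes alphaTry and betaTry carried most of the gut sum. The other 5 summed to 5804 and 7066 in the later pair, against 6852 and 6989.7 in the earlier pair, with library 4 the highest. PGRP-SC2 was higher in both libraries of the later pair, as given above. The 9 male reproductive markers summed to 3339 and 865 in the later pair, against 810 and 822 in the earlier pair, and all 9 had their highest value in library 3. Markers of muscle, eye and nerve summed to 3335 and 3094 in the later pair, against 3322 and 2929 in the earlier pair. Against the average of the other libraries, all 7 tested male markers were higher in library 3, by log2 differences of 0.72 to 3.20. The lowest fat body and gut markers there were Amy-d at -0.70, FASN1 at -0.61 and Mal-A1 at -0.58. As these markers were chosen with their values known, their agreement in library 3 is no independent result. The part of tissue content, and of the control ratios given above, in the values of Rel and Tep4 was not tested.

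Around the named genes, 7 lists of other immune genes were examined: further PGRP and TEP genes, the Imd, Toll and JAK/STAT pathways, phagocytosis receptors and effector peptides. Of their 79 genes, 60 had a single-gene probe set and 34 passed the filter. Of the 60, 24 lay above the highest negative control in all libraries, as did 39.9% of all fly probe sets. In limma, 0 of the 34 passed the test between the labelled hours (5 at an unadjusted p under 0.05, all lower at hours -2 and -1) and 0 passed the limma-based test of variability (1 at an unadjusted p under 0.05). Over all tested probe sets, 12.3% had an unadjusted p under 0.05 between the labelled hours, 9.12% as lower and the rest as higher, and 5.53% had one for variability. Without overlap, 14 of the 34 were lower and 3 higher at the later hours, beside the shares of 28.3% and 17.2% over all tested probe sets. The median log2 difference was -0.05 over the 34 genes and -0.02 over all tested probe sets.

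Other PGRP and TEP genes were mostly dim. Of 7 further PGRP genes, 4 had a single-gene probe set and 2 were tested. PGRP-LE, an intracellular receptor of the Imd pathway, had 127 and 132 in the later pair, against 136 and 143 in the earlier pair, a log2 difference of -0.11 ± 0.07 (SE) with a limma adjusted p of 0.538. Its value in library 4 did not reach the highest negative control there, 133. PGRP-LA, which promotes Imd signalling in barrier epithelia, had 158 and 147 in the later pair, against 158 and 150.1 in the earlier pair at the brighter of its probe sets. PGRP-SB2, the gene next to PGRP-SB1 in the genome, lay between 58.3 and 66.5, and PGRP-LF, an inhibitor at the membrane and the neighbour of PGRP-LC, between 14.1 and 23.5. Both lay below the highest negative control, as did Tep3, the neighbour of Tep2, at 40.1 to 46.2, and the pseudogene Tep5Psi at 54.3 to 71.6.

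The Imd pathway, which ends in Relish, had 10 tested genes, of which 0 passed in limma. At an unadjusted p under 0.05, 1 differed between the labelled hours, Diap2, beside 12.3% of all tested probe sets. A difference below 0 was found for 8 of the 10, and without overlap 4 were lower and 1 higher. The shares over all tested probe sets were 57.3%, 28.3% and 17.2%. Dredd, the caspase that cleaves Relish, stood at 200.4 and 192.5 in the later pair, against 199 and 201.1 in the earlier pair, so the libraries that were low for Rel were nearly level for Dredd. Diap2, a ubiquitin ligase gene of the pathway, had 187 and 169 in the later pair, against 209 and 209 in the earlier pair. Its log2 difference was -0.23 ± 0.07 (SE) and its adjusted p 0.242. Charon, which encodes an ankyrin protein that works with Relish, had the largest ratio of SD to expected SD in the list at 2.86. It had 111.6 and 158 in the later pair, against 139.7 and 154 in the earlier pair. In the limma-based test of variability its unadjusted p was 0.0101 and its adjusted p 0.538. It was the 1 gene of the list under 0.05 before adjustment, beside 5.53% of all tested probe sets. Its value in library 3 lay below the highest negative control of that library, 126. The pathway inhibitor gene pirk had 218 and 202 in the later pair, against 194 and 195 in the earlier pair, a log2 difference of 0.11 with an adjusted p of 0.534. The genes imd and Fadd lay below the floor on dim values of 57 in every library.

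The Toll pathway had 10 tested genes, of which 0 passed in limma (2 at an unadjusted p under 0.05, SPE and nec), 9 had a difference below 0 and 6 were lower without overlap. The shares over all tested probe sets were 12.3% at that unadjusted p, 57.3% below 0 and 28.3% lower without overlap. GNBP2, GNBP3, Myd88, tub and pll lay below the highest negative control in every library. Of these dim genes, GNBP2, GNBP3 and pll are among the 6 lower without overlap. SPE, the protease that activates the Toll ligand, had 269 and 253 in the later pair, against 303 and 296 in the earlier pair (log2 difference -0.20 ± 0.07 SE, adjusted p = 0.287). The serpin gene nec had 392 and 369 in the later pair, against 439 and 429 in the earlier pair (-0.19 ± 0.07 SE, adjusted p = 0.330). Both followed the order of Rel between the pairs of libraries, with a smaller difference.

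Of 4 tested JAK/STAT genes, 0 passed in limma (2 at an unadjusted p under 0.05, Stat92E and dome) and all 4 had a difference below 0, beside 12.3% and 57.3% of all tested probe sets. With 4 genes these counts say little about the pathway. Stat92E, the transcription factor of the pathway that induces Tep1, had 255 and 253 in the later pair, against 288 and 303 in the earlier pair, a log2 difference of -0.22 ± 0.07 (SE) with an adjusted p of 0.242. The receptor gene dome had 155 and 142 in the later pair, against 163 and 173 in the earlier pair, with a difference of -0.18 ± 0.07 (SE) and an adjusted p of 0.375.

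**Figure D3:**
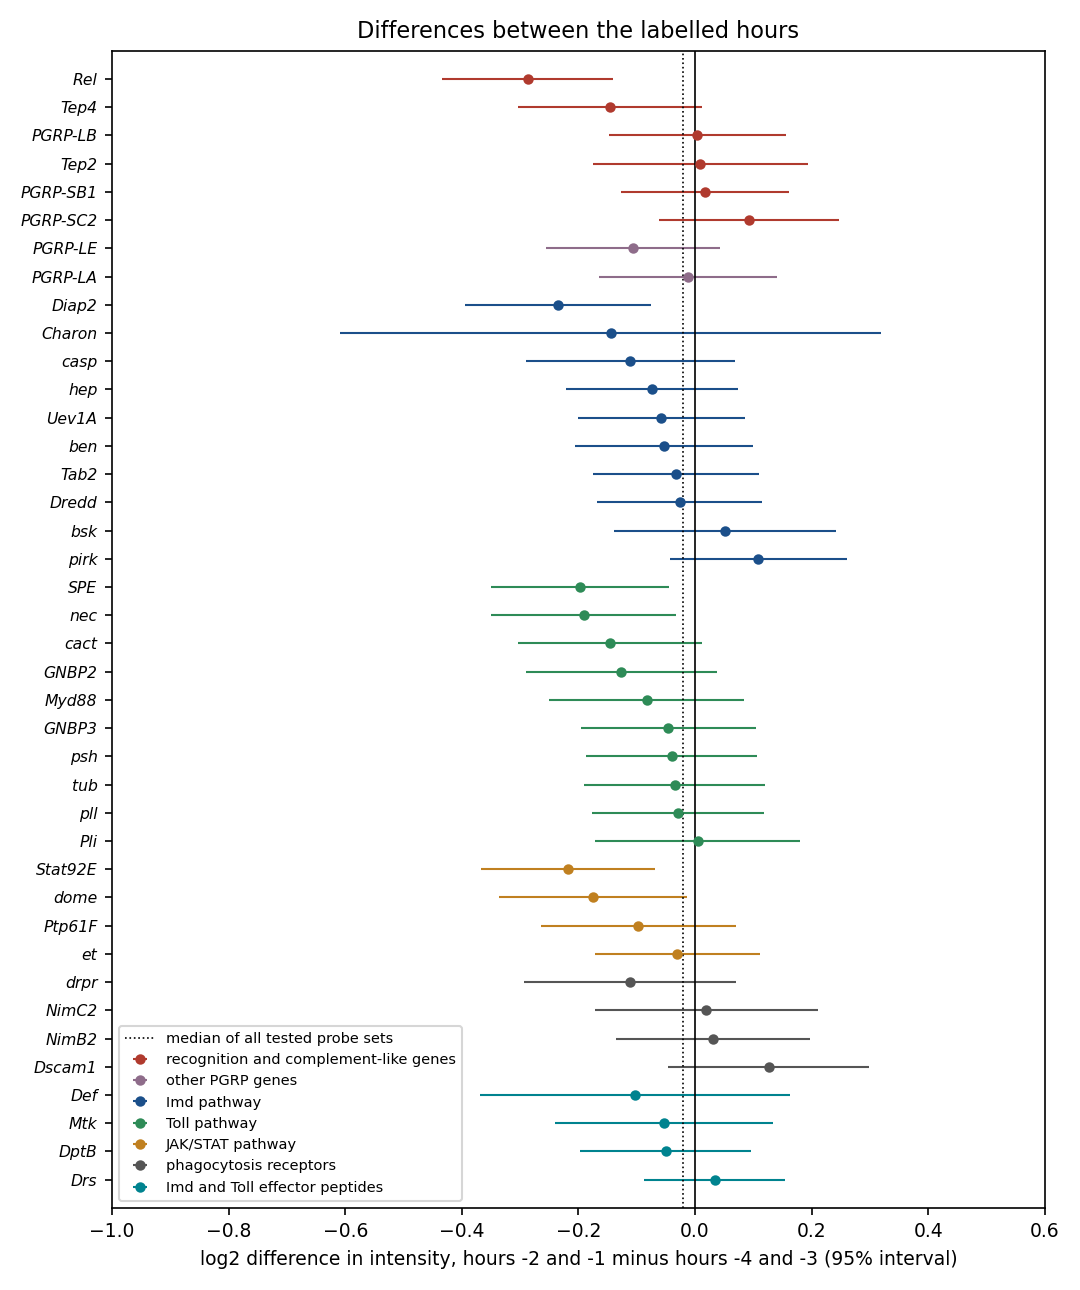
Log2 difference in intensity between libraries 3 and 4 and libraries 1 and 2, at hours -2 and -1 minus hours -4 and -3 (x axis), with its 95% interval, for the tested recognition and complement-like genes, Tep2 by its RefSeq synonym included, and the 34 tested genes of the other immune lists. The dotted line is the median of all tested probe sets at -0.02. Rel has the lowest difference, at -0.29, and no gene shown passed the threshold.

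Downstream of Relish and the Toll factors, 4 effector peptide genes were tested. In limma 0 passed, either between the labelled hours or for variability (0 at an unadjusted p under 0.05 in each). Over all tested probe sets, 0.131% passed between the hours and 0.274% for variability, and 12.3% and 5.53% had an unadjusted p under 0.05. Counts of 0 among 4 genes therefore say little about the peptides. The defensin gene Def had 546 and 496 in the later pair, against 630 and 497 in the earlier pair, so its high value lay in library 1. The metchnikowin gene Mtk had 266 and 256 in the later pair, against 292 and 251 in the earlier pair. Their log2 differences were -0.10 ± 0.12 (SE) for Def and -0.05 ± 0.08 (SE) for Mtk, with limma adjusted p of 0.736 and 0.816. The remaining tested peptide genes, DptB and Drs, were steadier, with an SD of 0.599 and 0.329 times that expected. DptB had 195 and 207 in the later pair, against 210 and 206 in the earlier pair. Drs had 3667 and 3661, against 3546 and 3613.

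Of 4 tested phagocytosis receptor genes, 0 passed in limma between the labelled hours (0 at an unadjusted p under 0.05). The shares over all tested probe sets were 0.131% and 12.3%, so counts of 0 among 4 genes say little about these receptors. NimC2 had 154 and 131 in the later pair, against 143 and 137 in the earlier pair, and the engulfment receptor gene drpr had 305 and 265 in the later pair, against 309 and 305 in the earlier pair. Dscam1 had higher values in the later pair without overlap, with 126 and 127 in the later pair, against 109 and 123 in the earlier pair (log2 difference 0.13 ± 0.08 SE, adjusted p = 0.528). Dscam1 and NimC2 did not exceed the highest negative control in every library.

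**Figure D4:**
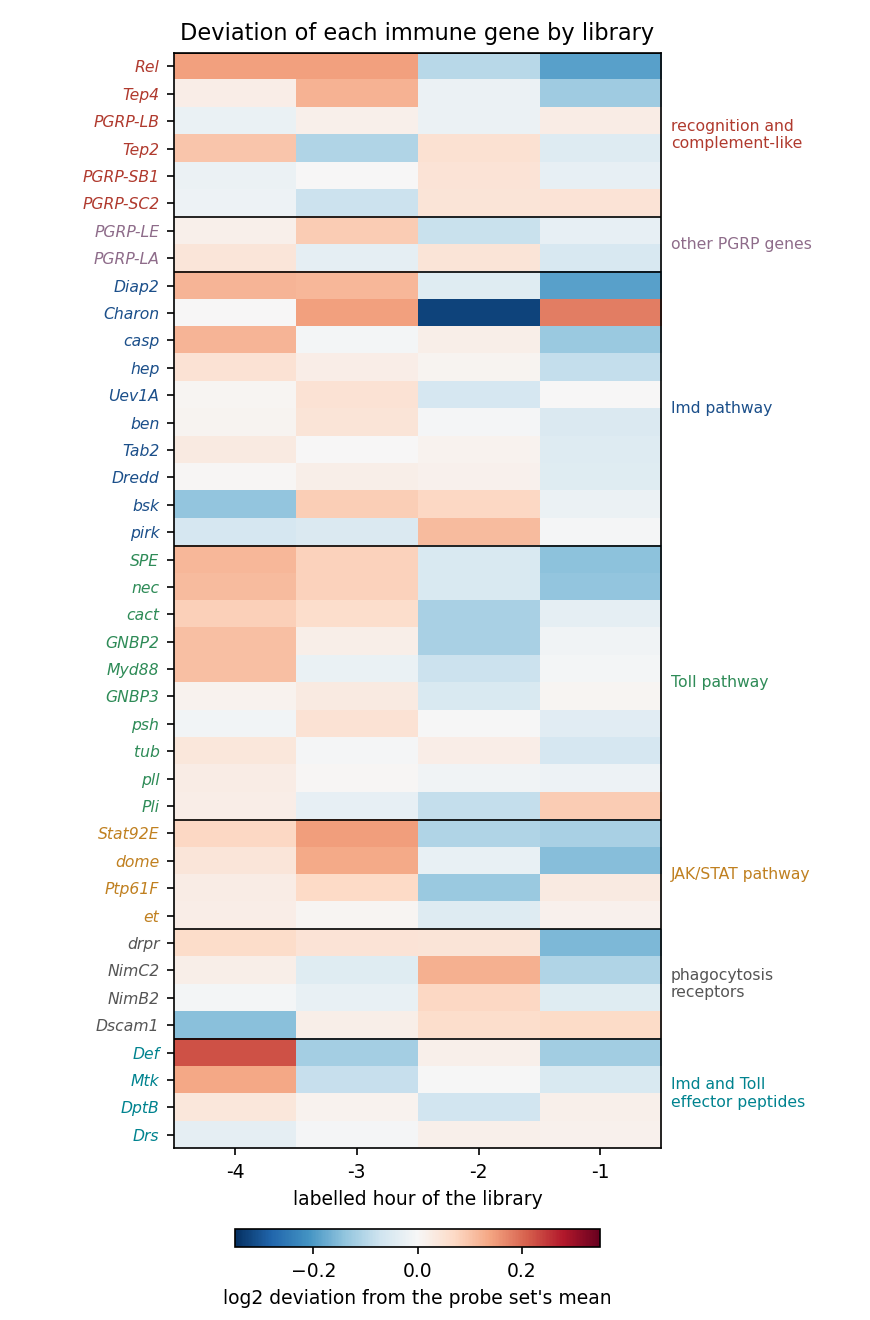
Deviation of log2 intensity from the mean of each probe set (colour) in the libraries ordered by labelled hour (x axis) for the tested immune genes (rows), grouped by list, with Tep2 by its RefSeq synonym. PGRP-LB and PGRP-SB1 stay close to 0 in every library, and Rel, Diap2, SPE and nec are above their mean at hours -4 and -3 and below it at hours -2 and -1.

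The genes whose pattern over the libraries was most like that of Rel were taken from 7466 other named probe sets by the root mean square difference of log2 deviations. They were prtp (0.0070), nes (0.012) and ND-B17 (0.014), the last a subunit gene of mitochondrial complex I. Of these, prtp had 155 and 146 in the later pair, against 185 and 183 in the earlier pair. The likeness rests on 4 libraries and was picked as the best of many, so it is a description of these arrays.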

How the data were processed

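The deposited values are intensities, 1 per probe set and array, normalized between arrays by the authors with DNA-Chip Analyzer (dChip) through an invariant set of probes, per the labels. Neither its version nor its background model is given in the sources used here. Such a normalization can leave differences that depend on intensity. No counts exist, so depth is unknown, and the number of arrays, 4, limits the precision.

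A floor was set at the 20th percentile of the whole table (57) before log2 was taken. The 44 control probe sets were left out, and the 8379 probe sets with a mean above the 40th percentile of means were tested. Genes were named from probe sets with 1 gene in the platform annotation (12443 probe sets; 327 had several genes and 1196 none), with symbols updated from RefSeq (assembly Release 6 plus ISO1 MT). A gene with several probe sets is represented in list counts by the one with the highest mean.

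Tests used R 4.3.3, limma 3.58.1 and statmod 1.5.0. Variability was tested by the variance over the 4 libraries against a robust, trended prior variance (squeezeVar), upper tail of F. Differences were tested with lmFit and eBayes, robust and trended, two-sided. Benjamini-Hochberg adjustment ran over all tested probe sets, with a threshold of 0.05. Intervals are limma's, without adjustment.

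The members and lists were chosen with earlier results of these data known. Besides the members, each pathway list names the 2 tested genes with the largest ratio of SD to expected SD, the 2 with the largest difference between the labelled hours and any that passed. Dredd, pirk, imd, Fadd, DptB, Drs, the tissue markers and the dim PGRP and TEP genes were added after their values were seen. Alternatives were another floor, no filter or a stricter one, quantile normalization, a prior that is not robust, a slope over the labelled hour, and each library left out. Sequences were not used here.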

Additional observations from a re-analysis of the deposited data

Results flagged for a closer look

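In a check of the members and the other named genes for a single library far from the other 3 (38 probe sets), 8 stood out. Chance alone flags about 1 in 20 where genes are not chosen for their values, but many of these were named for a large spread or for passing in library 3, so that rate does not apply to them. None of PGRP-SB1, PGRP-LB, PGRP-SC2, Tep4, Rel or Tep2 was among them. The measure is the gap between the outlying library and its nearest neighbour as a share of the whole range. It was 0.905 for the engulfment receptor gene drpr, low in library 4 at 265 against 305 to 309, and 0.866 for the maltase gene Mal-A1, low in library 3 at 264 against 387 to 406. The other 6 were male reproductive markers high in library 3, with 0.991 for Mst57Da, 0.989 for Acp95EF, 0.981 for Mst84Da, 0.982 for Mst84Dd, 0.908 for Mst87F and 0.882 for Anp.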

How the results depend on the processing

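Under the alternatives tried, the count of annotated members past the threshold stayed at 0, except that Rel alone passed as lower between the labelled hours without library 3 or library 4, and so also in library 4 without library 3 and in library 3 without library 4. Leaving out each library gave 0 to 1 members for these 3 comparisons, and the adjusted p of Rel between the labelled hours ran from 0.00690 to 0.930 over 9 alternatives. Differences close to 0 changed sign. Leaving out each library gave -0.0211 to 0.0551 for PGRP-SB1, -0.0189 to 0.0271 for PGRP-LB and -0.0918 to 0.11 for Tep2, and the slope per labelled hour was -0.0263 for Tep2. In the whole table the counts moved more, and the cause was not tested. For variability, 23 probe sets became 12 with the filter at the 60th percentile, 40 with quantile normalization, 10 with a prior that is not robust, and 0 to 57 with each library left out. Between the labelled hours, 11 became 0 without a filter, 5 with quantile normalization, 0 as a slope, and 0 to 504 with each library left out. Without a filter, libraries 1, 2, 3 and 4 against the others gave 51, 35, 126 and 104 probe sets, and with the stricter filter 1, 5, 24 and 0. Quantile normalization gave 0 for library 4. Leaving out each library gave 5 to 18 for library 2, 52 to 504 for library 3 and 0 to 503 for library 4. Signal near background limits Rel, Tep4 and PGRP-SB1 most. No paired analysis was possible because the samples form 1 group.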

Other observations

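Some probe sets match several PGRP genes and name none alone. The brighter of 2 that match PGRP-SC1a and PGRP-SC1b, gut amidase genes next to PGRP-SC2, had 257 and 242 in the later pair, against 248 and 202 in the earlier pair, and library 2 was the lowest there as it was for PGRP-SC2. The SD of this brighter probe set was 1.93 times that expected, larger on this ratio than that of 93.0% of tested probe sets. The other of the 2 lay between 34.7 and 48.7. A probe set shared by PGRP-LD and Pmi had 149 and 148 in the later pair, against 154 and 140.3 in the earlier pair.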
